A study of Rattus norvegicus with 4 samples.

Results

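The collagen genes were taken as all rows of the count files whose name is Col, a number, the letter a and a number, and 29 of the 25810 gene names listed met this rule. RNA-Seq was run on 2 libraries each of wtPC12 and hrPC12, clones of the rat pheochromocytoma line PC12, a chromaffin-like tumour cell. The wtPC12 cells carry the label of low REST and are described as wild type, and the hrPC12 cells carry the label of high REST, the transcriptional repressor of neuronal genes. By the study's account high REST arose spontaneously in some PC12 clones, and no treatment or time point is given. Each REST level is a single clone, so REST and other differences between the clones cannot be told apart, and the labels do not say whether the 2 libraries of a clone come from separate cultures, so p values measure the spread between libraries only. The comparison asks which genes differ between the clone with low and the clone with high REST.

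Collagens are matrix proteins whose chains carry long glycine-rich repeats and wind around each other as homo- or heterotrimers. Fibrillar collagens assemble into the cross-linked fibres of connective tissue, type IV forms the sheet of basement membranes, FACIT collagens sit on the surface of fibrils, and type VI forms beaded microfilaments around cells. Fibrillar chains are made mostly by mesenchymal cells, and PC12 cells descend from the neural crest. In the count files the 29 names fall into 10 fibrillar, 4 basement membrane, 5 FACIT and 4 beaded chains and 6 others. The entries CO9A1_RAT and COBA1_RAT, named in another style, are outside the rule and held at most 3 reads in any library.

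Each library held 20975027 to 27246502 reads on genes, and levels are given as normalized counts after TMM scaling (factors 0.942 to 1.05). Rest itself had 43.0 and 132 normalized counts in the wtPC12 libraries and 964 and 915 in the hrPC12 libraries, a log2 FC (hrPC12/wtPC12) of 3.42 (standard error 0.57, edgeR adj. p value 0.0115), in the direction of the labels and short of the threshold used here. Of the chromaffin markers, 6 of 8 tested were lower in hrPC12 past both thresholds given in the next paragraph, as were 5.46% of all tested genes. The summed level of the 9 chromaffin markers found was 817557 and 955815 normalized counts in wtPC12 and 47080 and 51085 in hrPC12. Most of the wtPC12 sum came from Chgb, with 657356 normalized counts on average in wtPC12 and 554 in hrPC12, and from Th, with 167885 and 19865. Ddc, which makes dopamine, was not called and had 22518 and 27138 normalized counts on average in wtPC12 and hrPC12. Of the other cell type markers, Sox10, Foxd3 and Cdh19 of Schwann cells had no read, and none of the 2 Schwann cell and 2 leukocyte markers tested passed in edgeR or in DESeq2 (0 and 1, respectively, had an unadjusted p under 0.05). Between the hrPC12 libraries, replicate 1 held 236166 reads that fell in more than 1 gene, against 55908 to 78907 in the other libraries. Replicate 1 also had higher counts than replicate 2 in runs of neighbouring genes that together hold 1251 of 9511 genes placed. The 4 libraries are shown for each collagen gene in the plot of normalized counts by library.

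Reads on collagen genes numbered 1878 and 2222 in the wtPC12 libraries and 176982 and 146421 in the hrPC12 libraries. Col3a1, Col5a2, Col12a1 and Col16a1, chosen after their values were seen, held 34.6% and 38.2% of these reads in wtPC12 and 95.8% and 96.4% in hrPC12. Lower and higher here refer to the RNA of a whole culture, and fewer cells with a transcript or less of it per cell cannot be told apart. Of the 29 genes, 23 passed the study's filter of at least 5 normalized counts on average and reads in both clones, and differences were tested by quasi-likelihood in edgeR, with p values adjusted over 13726 genes after Benjamini and Hochberg. Past an adj. p value of 0.01 and a log2 FC of 2 in either direction, 13 collagen genes were higher and 3 lower in hrPC12, and 7 were not called. Among all tested genes 4.84% were higher and 5.46% lower by the same rule, 10.3% in all. With glmTreat, which tests for a change past the fold threshold itself, 8 collagen genes were higher and 0 lower (17 had an unadjusted p under 0.05). By glmTreat 2.34% of all tested genes were higher and 2.57% lower, and 1657 of 13726 had an unadjusted p under 0.05. Of the 13 genes, 7 had under 5 normalized counts on average in wtPC12 and so passed the filter through hrPC12, where they had to be high. The other 6 were above 5 in both clones, as were 13 of the 23 tested. The 23 tested genes had a median log2 FC of 3.84, against 0.06 over all tested genes. Of the 23 tested genes, both hrPC12 libraries lay above both wtPC12 libraries in 15 and below them in 7, where 37.9% and 35.6% of all tested genes did so (73.5% in all). Over all 29 genes, untested ones with a few reads included, these numbers were 18 and 8, and the libraries of the clones overlapped in 3. No share over all listed genes was computed beside them, and they include Col13a1 and Col23a1 with at most 2 reads in any library.

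**Figure D1:**
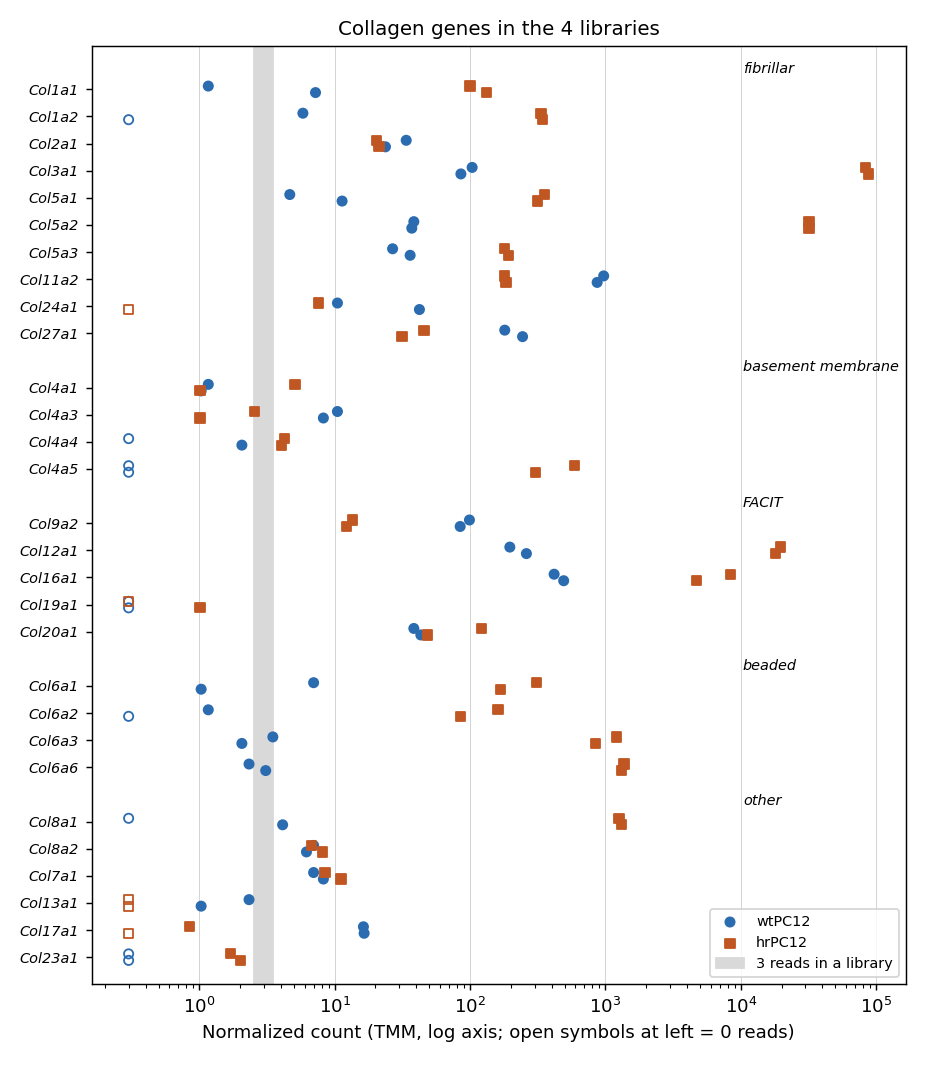
Normalized counts (TMM, log axis) of the 29 collagen genes in the 2 wtPC12 libraries (blue circles) and the 2 hrPC12 libraries (orange squares), by class. Open symbols at the left stand for 0 reads and the grey band for the level of 3 reads in a library (2.54 to 3.49 normalized counts). The squares of Col3a1 lie at 83801 and 88143 and its circles at 104 and 85.5, whereas the circles of Col11a2 (970.2 and 868) lie right of its squares (179 and 184).

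The calls depended on which library was left out. Without wtPC12 replicate 2 no gene of the table passed in edgeR, and 21 collagen genes were tested. Of these 21 genes, 12 were still above a log2 FC of 2 and 4 below −2. Without wtPC12 replicate 1, 11 of 20 collagen genes tested were above a log2 FC of 2 and 5 below −2. Col1a1, Col5a3, Col27a1 and Col9a2 were then no longer called. Col1a2 and Col6a2 were left out of that test because no read remained in wtPC12. Without hrPC12 replicate 1, 13 of 21 were above 2 and 4 below −2, and without hrPC12 replicate 2, 13 and 4 of 23. In the latter fit Col27a1 and Col9a2 were no longer called. No gene changed direction in these fits except Col8a2, which was not called.

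At 3 or fewer reads in both libraries, the limit taken here for detection, stood 9 collagen genes in wtPC12 and 5 in hrPC12, of which 3 were so in both clones. Detection by this limit was thus confined to hrPC12 for Col4a1, Col4a4, Col4a5, Col6a2, Col6a3 and Col6a6, and to wtPC12 for Col4a3 and Col17a1. For Col4a1 and Col4a4 this rests on few reads, 6 and 1 and then 5 and 4 in the hrPC12 libraries, and shows no difference between the clones. Col13a1 and Col23a1, both of transmembrane collagens, and the FACIT gene Col19a1 were at the limit in both clones. This limit covers counting error only, since reads without molecular identifiers need not be independent molecules.

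**Figure D2:**
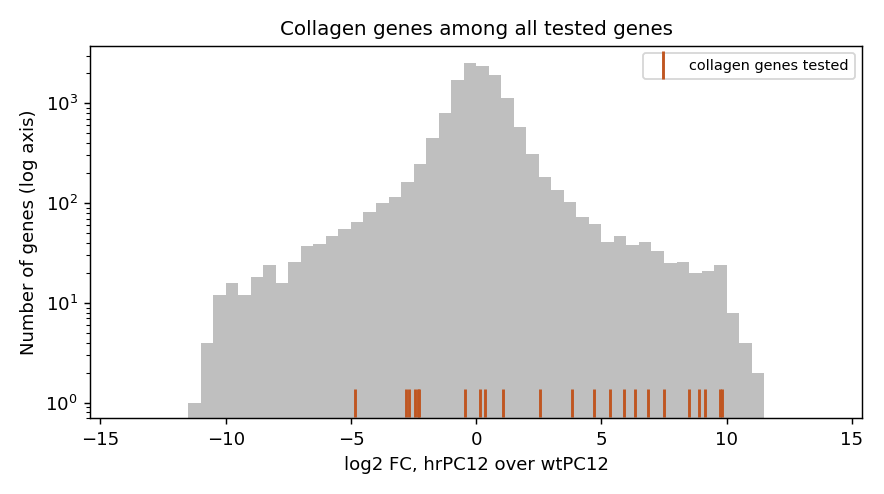
Histogram of the log2 FC (hrPC12 over wtPC12) of all 13726 tested genes, with the number of genes on a log axis, and the 23 tested collagen genes as orange ticks. The ticks run from −4.82 (Col17a1) to 9.83 (Col3a1), and 16 of them lie above 0.

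Promoter sequences from RefSeq (rat assembly GRCr8) could be matched by symbol for 24 of the 29 genes, and Col1a1, Col2a1, Col3a1, Col6a2 and Col12a1 have no entry in that table. The reads had been aligned to an earlier build, so the windows only show the sequence before the annotated start. The 250 bases before the start are printed for the 3 genes with the highest counts among those matched and higher in hrPC12 (Col5a2, Col16a1, Col6a6) and for the 3 lower ones (Col11a2, Col27a1, Col9a2), because these are the members that moved in opposite directions. Capitals mark matches to the TATA box TATAAA, the CCAAT box CCAAT or the GC box GGGCGG on either strand, and the GC boxes of Col11a2 partly overlap.
Col5a2 (chr9:55090152-55090401, minus strand): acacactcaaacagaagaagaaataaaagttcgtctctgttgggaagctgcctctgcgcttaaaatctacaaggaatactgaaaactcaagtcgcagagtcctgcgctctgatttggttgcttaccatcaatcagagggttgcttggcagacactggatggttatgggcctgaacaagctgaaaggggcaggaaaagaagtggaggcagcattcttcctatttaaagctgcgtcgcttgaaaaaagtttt
Col16a1 (chr5:147672846-147673095, plus strand): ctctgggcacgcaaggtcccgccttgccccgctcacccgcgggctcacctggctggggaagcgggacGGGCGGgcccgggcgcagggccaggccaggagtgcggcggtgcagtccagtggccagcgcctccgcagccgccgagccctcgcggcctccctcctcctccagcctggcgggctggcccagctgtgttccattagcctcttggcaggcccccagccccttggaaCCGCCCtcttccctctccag
Col6a6 (chr8:115352162-115352411, minus strand): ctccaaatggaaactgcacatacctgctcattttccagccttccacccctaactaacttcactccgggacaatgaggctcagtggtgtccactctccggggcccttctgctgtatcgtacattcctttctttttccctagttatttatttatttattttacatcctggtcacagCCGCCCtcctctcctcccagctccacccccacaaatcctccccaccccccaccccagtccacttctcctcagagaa
Col11a2 (chr20:4817649-4817898, minus strand): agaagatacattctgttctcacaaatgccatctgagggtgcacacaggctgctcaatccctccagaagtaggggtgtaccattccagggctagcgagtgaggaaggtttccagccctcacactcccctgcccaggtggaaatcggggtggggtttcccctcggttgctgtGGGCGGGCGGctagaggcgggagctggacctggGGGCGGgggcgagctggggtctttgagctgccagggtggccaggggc
Col27a1 (chr5:81662658-81662907, plus strand): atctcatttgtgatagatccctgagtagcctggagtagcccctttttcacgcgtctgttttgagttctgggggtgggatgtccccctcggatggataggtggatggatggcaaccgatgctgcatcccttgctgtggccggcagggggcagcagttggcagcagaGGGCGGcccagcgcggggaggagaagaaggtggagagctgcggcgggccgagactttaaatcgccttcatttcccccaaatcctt
Col9a2 (chr5:139892548-139892797, plus strand): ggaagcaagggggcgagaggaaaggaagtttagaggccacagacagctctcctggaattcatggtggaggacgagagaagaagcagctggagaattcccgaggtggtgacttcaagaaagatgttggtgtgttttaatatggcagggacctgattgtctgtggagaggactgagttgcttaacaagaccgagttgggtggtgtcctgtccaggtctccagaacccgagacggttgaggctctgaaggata
Of these 3 motifs the 6 windows held GC boxes only, in Col16a1, Col6a6, Col11a2 and Col27a1. TATAAA was in 13.1% and CCAAT in 34.3% of all windows. A GC box was present in 5 of 9 matched genes that were higher, in 2 of 3 that were lower and in 15 of all 24 matched collagen genes. It was in 32.4% of all 27455 promoter windows of this length. The letters CAGAC, a SMAD-binding box, were in 4 of 9 and 2 of 3 windows (42.8% of all), and the E box CANNTG in 5 of 9 and 3 of 3 (65.2% of all). The AP-1 site TGANTCA was found once, in Col6a1, and in 6.36% of all windows. The GC content of the windows had a median of 60.0% in the 9 genes, 58.8% in the 3 genes, 59.8% in all 24 matched collagen genes and 52.0% over all promoters. These matches describe the sequence only.

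Among the fibrillar genes, 6 of 10 rose and 2 fell in hrPC12, and all 10 were tested. The genes that rose were Col1a1, Col1a2, Col3a1, Col5a1, Col5a2 and Col5a3, the chains of types I, III and V, and those that fell were Col11a2 and Col27a1. Of these, Col1a1 and Col1a2 had under 5 normalized counts on average in wtPC12 and so passed the filter through hrPC12, where they had to be high. Col3a1, the single chain of type III, had 104 and 85.5 normalized counts in the wtPC12 libraries and 83801 and 88143 in the hrPC12 libraries. This is a log2 FC of 9.83 (standard error 0.31, edgeR adj. p value 0.000243), or 909.6-fold, and the wtPC12 counts are 0.12% and 0.0994% of the hrPC12 mean. Col5a2, a chain of type V, which starts and limits the growth of fibrils, had 38.4 and 37.1 normalized counts in wtPC12 and 31862 and 31861 in hrPC12. The log2 FC of Col5a2 was 9.72 (standard error 0.25, edgeR adj. p value 0.000243), and its libraries hardly differed within a clone. Col3a1 and Col5a2 neighbour each other in the rat assembly.

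The partner chain Col5a1 had 4.65 and 11.3 normalized counts in wtPC12 and 353 and 316 in hrPC12, with a log2 FC of 5.34 (standard error 0.49, edgeR adj. p value 0.00196). Without wtPC12 replicate 1 its log2 FC was 4.84, and without wtPC12 replicate 2 it was 6.13. The third chain of this type, Col5a3, had 26.8 and 36.1 normalized counts in wtPC12 and 180.3 and 192 in hrPC12, with a log2 FC of 2.56 (standard error 0.35, edgeR adj. p value 0.00642). All 3 chains of type V thus rose, by folds from 5.90 to 842. The number of Col5a1 reads for each Col5a2 read was 0.121 and 0.306 in wtPC12 and 0.0111 and 0.00991 in hrPC12. Both hrPC12 values of this ratio lay below both wtPC12 values, and as transcript lengths were not used it compares libraries and not chains.

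Type I is the main collagen of bone, tendon and skin, and both of its chains rose. Col1a1 had 1.16 and 7.21 normalized counts in wtPC12 and 99.9 and 132 in hrPC12. Its log2 FC of 4.71 (standard error 0.71, edgeR adj. p value 0.00872) was 3.95 without wtPC12 replicate 1 (adj. p value 0.0118) and 6.49 without wtPC12 replicate 2 (adj. p value 0.0232). Col1a2 had 5.82 and 0 normalized counts in wtPC12 and 334 and 341 in hrPC12, with a log2 FC of 6.87 (standard error 0.88, edgeR adj. p value 0.00540), or 5.83 without wtPC12 replicate 2. The wtPC12 values of both genes rest on 8 and 5 reads in all, and the ratio of reads of the clones has a 95% counting interval (exact, Clopper-Pearson) from 13.1 to 61.3 for Col1a1 and from 52.7 to 382 for Col1a2. The hrPC12 libraries held 0.299 and 0.386 reads of Col1a1 for each read of Col1a2.

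Col11a2, a chain of the minor cartilage collagen type XI, had 970.2 and 868 normalized counts in wtPC12 and 179 and 184 in hrPC12. It fell by 2.34 on the log2 scale (standard error 0.23, edgeR adj. p value 0.00258), which is 5.07-fold, and the libraries of the clones did not overlap. Col27a1, which codes for a fibrillar chain of cartilage, had 180.3 and 244 normalized counts in wtPC12 and 45.7 and 31.4 in hrPC12. It fell by 2.45 (standard error 0.38, edgeR adj. p value 0.00958), close to the threshold, and without hrPC12 replicate 2 its adj. p value was 0.0194, without wtPC12 replicate 1 it was 0.0114 and without wtPC12 replicate 2 it was 0.0426. The windows of both genes printed above hold the GC box, as do those of 15 of all 24 matched collagen genes. The window of Col9a2, which also fell, does not. The other 2 fibrillar genes were not called. Col2a1, the main chain of cartilage collagen, had 33.7 and 23.7 normalized counts in wtPC12 and 20.3 and 21.2 in hrPC12 (log2 FC −0.46, standard error 0.43, edgeR adj. p value 0.437). Col24a1 had 10.5 and 42.2 in wtPC12 and 7.62 and 0 in hrPC12, so that the wtPC12 libraries differed from each other more than the lower of them did from hrPC12.

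**Figure D3:**
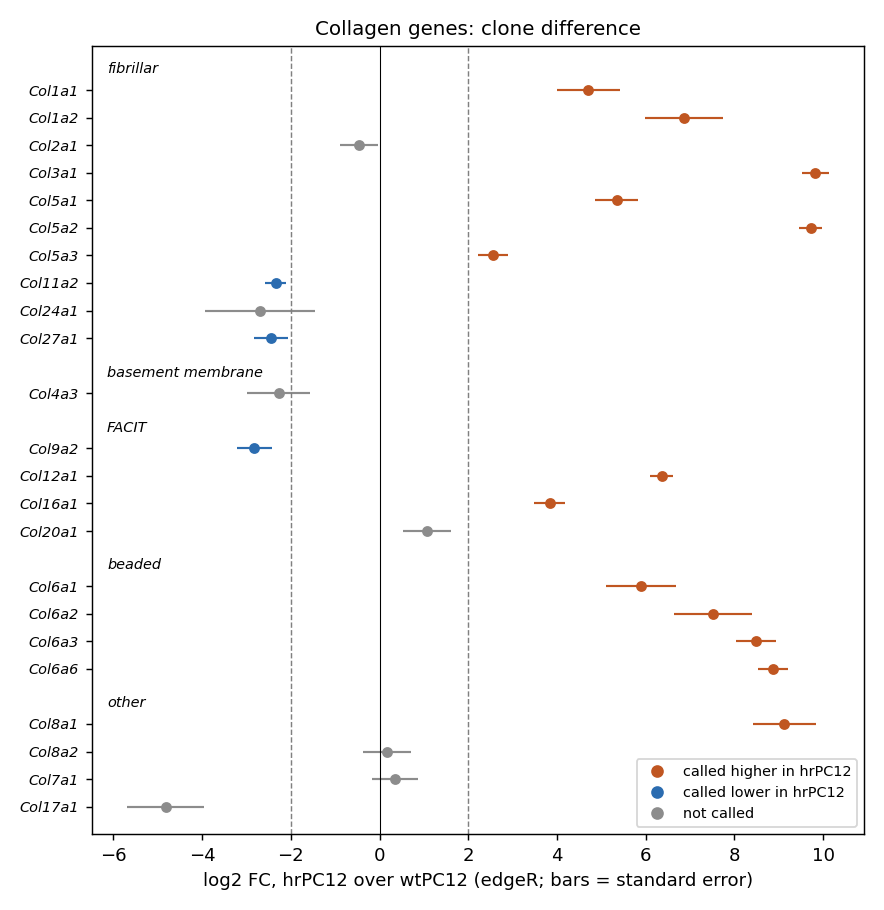
Log2 FC of the 23 tested collagen genes (hrPC12 over wtPC12, edgeR) with standard errors as bars, by class, and dashed lines at the threshold of 2 in either direction. Genes called higher in hrPC12 are orange, genes called lower blue and the others grey, and the 4 beaded genes all lie between 5.90 and 8.88.

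The beaded class was the only one in which every listed chain rose in hrPC12, 4 of 4, with log2 FC from 5.90 to 8.88. In these 4 genes wtPC12 was below 5 normalized counts on average, so they passed the filter through hrPC12. Col6a1 and Col6a2 code for the core chains of type VI and neighbour each other in the rat assembly. Col6a1 had 6.98 and 1.03 normalized counts in wtPC12 and 308 and 168 in hrPC12, and Col6a2 had 1.16 and 0 in wtPC12 and 161 and 85.0 in hrPC12. Their log2 FC were 5.90 (standard error 0.78, edgeR adj. p value 0.00604) and 7.51 (standard error 0.89, edgeR adj. p value 0.00417).

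The wtPC12 libraries held 1 read of Col6a2 in all, and the ratio of reads of the clones was 231 with a 95% counting interval from 41.1 to 9164. Without wtPC12 replicate 2 the log2 FC of Col6a2 was 6.58 and that of Col6a1 5.07, and without wtPC12 replicate 1 that of Col6a1 was 7.66. In hrPC12, replicate 1 was 1.83-fold above replicate 2 for Col6a1 and 1.89-fold for Col6a2, a difference between libraries that is small beside that between clones. The reads of Col6a1 for each read of Col6a2 were 1.92 and 1.98 in these libraries. The ratio of the chains therefore hardly differed between libraries whose levels did.

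Col6a3, the long chain that joins the first pair of chains in type VI, had 3.49 and 2.06 normalized counts in wtPC12 and 1211 and 847 in hrPC12, with a log2 FC of 8.49 (standard error 0.45, edgeR adj. p value 0.000523). Col6a6, an alternative to the Col6a3 chain in some tissues, had 2.33 and 3.09 normalized counts in wtPC12 and 1369 and 1319 in hrPC12, with a log2 FC of 8.88 (standard error 0.34, edgeR adj. p value 0.000266). With at most 3 reads per wtPC12 library, the read ratios of the clones were 383 (95% counting interval 164 to 1180) for Col6a3 and 493 (95% counting interval 211 to 1519) for Col6a6. The hrPC12 libraries held 3.93 and 5.04 reads of Col6a3 for each read of Col6a1.

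Of the FACIT genes, 2 of 4 tested rose and 1 fell. Col12a1, whose protein links fibrils in tendon and other dense tissue, had 197 and 261 normalized counts in wtPC12 and 19518 and 18132 in hrPC12. This is a log2 FC of 6.36 (standard error 0.26, edgeR adj. p value 0.000287), or 82.2-fold, and ranged from 6.14 to 6.58 over all alternatives. Col16a1 had 418 and 491 normalized counts in wtPC12 and 8359.7 and 4682 in hrPC12, with a log2 FC of 3.84 (standard error 0.35, edgeR adj. p value 0.00193). In hrPC12, replicate 1 was 1.79-fold above replicate 2. Around Col16a1, 21 genes next to each other form such a run, with a median log2 ratio of 0.80 between these libraries, and its log2 FC was 3.39 with replicate 1 scaled down in the runs and 3.36 without that replicate.

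Col9a2, a chain of the cartilage collagen type IX, had 98.9 and 84.5 normalized counts in wtPC12 and 13.5 and 12.1 in hrPC12. It fell by 2.82 (standard error 0.39, edgeR adj. p value 0.00675), or 7.06-fold, and its adj. p value was 0.0178 without wtPC12 replicate 1, 0.0280 without wtPC12 replicate 2 and 0.0135 without hrPC12 replicate 2. Col20a1 had 38.4 and 43.3 normalized counts in wtPC12 and 122 and 48.6 in hrPC12 and was not called (log2 FC 1.06, standard error 0.54, edgeR adj. p value 0.181). Its difference between the clones came with a 2.51-fold difference between the hrPC12 libraries, and without hrPC12 replicate 1 the log2 FC was 0.25. Col19a1 had 1 read in the 4 libraries.

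Of the 4 basement membrane genes 1 was tested and none was called in edgeR or DESeq2 (1, Col4a3, had an unadjusted p under 0.05). Col4a1, a chain of the type IV found in all basement membranes, held at most 6 reads in any library and was too low to test, and Col4a2, its usual partner, is not among the names analysed here. Col4a5 was the exception, with no read in either wtPC12 library and 593 and 303 normalized counts in hrPC12. A level of 0 reads allows up to 3 reads per library, on which basis Col4a5 was at least 136-fold higher in hrPC12. The study's filter removes a gene without reads in one clone, so Col4a5 was not among the tested genes, and when every gene with a read was tested it passed both thresholds (edgeR adj. p value 9.07e-05). In hrPC12, replicate 1 was 1.96-fold above replicate 2 for this gene.

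Col4a3 and Col4a4, chains of the collagen of the kidney filter, neighbour each other in the rat assembly and point away from each other. Col4a3 had 10.5 and 8.24 normalized counts in wtPC12 and 2.54 and 1.01 in hrPC12, and Col4a4 had 0 and 2.06 in wtPC12 and 4.23 and 4.05 in hrPC12. Col4a3 was not called (log2 FC −2.27, standard error 0.71, edgeR adj. p value 0.0630), and Col4a4 was too low to test. Its read ratio of hrPC12 to wtPC12 was 3.8 with a 95% counting interval from 0.786 to 36.1, so a difference was not detectable at this depth.

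Of the other collagens only Col8a1 rose. It codes for a short-chain collagen of vessel walls and of the cornea, and had 0 and 4.12 normalized counts in wtPC12 and 1257 and 1308 in hrPC12, with a log2 FC of 9.13 (standard error 0.71, edgeR adj. p value 0.00124). With 4 reads in wtPC12 its read ratio was 586 (95% counting interval 229 to 2152), and without wtPC12 replicate 1 the log2 FC was 8.21. Col8a1 had under 5 normalized counts on average in wtPC12 and so passed the filter through hrPC12, where it had to be high. Its partner Col8a2 had 6.98 and 6.18 normalized counts in wtPC12 and 6.77 and 8.09 in hrPC12, with overlapping libraries. The log2 FC of Col8a2 was 0.17 (standard error 0.55, edgeR adj. p value 0.822), and the interval of its read ratio runs from 0.499 to 2.61, so that the chains of type VIII differed widely in their fold. Col7a1, the collagen that anchors the epidermis, had 6.98 and 8.24 normalized counts in wtPC12 and 8.47 and 11.1 in hrPC12 and was not called.

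Col17a1, a transmembrane collagen of hemidesmosomes, had 16.3 and 16.5 normalized counts in wtPC12 and 0.847 and 0 in hrPC12. Its log2 FC of −4.82 (standard error 0.88) had an edgeR adj. p value of 0.0152 and was not called, although it passed when every gene was tested, with the legacy option off, with RLE factors and with library totals. The read ratio of wtPC12 to hrPC12 was 35.6 with a 95% counting interval from 5.91 to 1451, as hrPC12 held 1 read. Col13a1 and Col23a1 held at most 2 reads in any library.

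**Figure D4:**
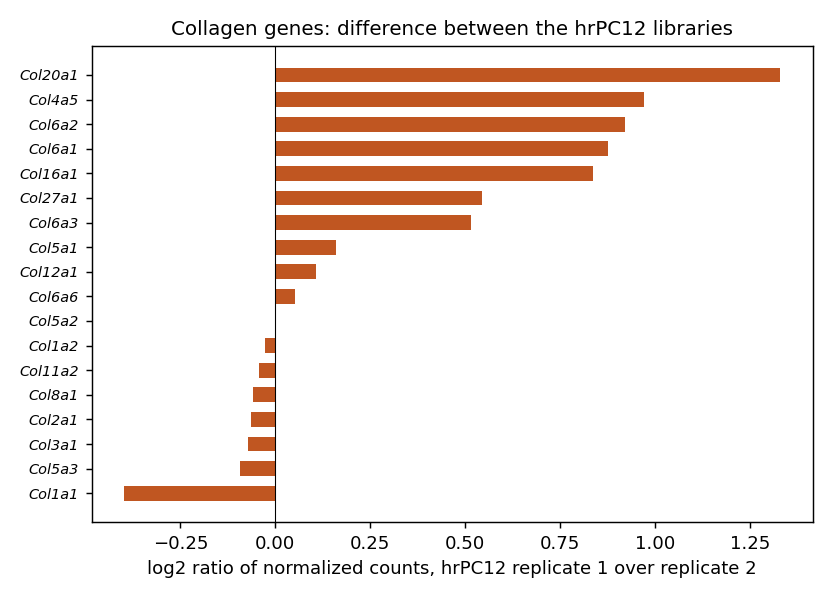
Log2 ratio of the normalized counts of hrPC12 replicate 1 to replicate 2 for the 18 collagen genes with at least 20 normalized counts on average in hrPC12. Col20a1, Col4a5, Col6a2, Col6a1 and Col16a1 lie above 0.8, and the bar of Col5a2 is too short to see.

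Genes whose products modify, bind or cut collagens were followed in 4 lists. Of the synthesis and processing genes, 26 of 33 were found and 16 tested, and 3 rose and none fell past both thresholds in edgeR and in DESeq2 (9 of the 16 had an unadjusted p under 0.05, as did 6357 of all 13726 genes tested). Among all tested genes 4.84% were called higher and 5.46% lower. Leprel1 had under 5 normalized counts on average in wtPC12 and so passed the filter through hrPC12, where it had to be high. Leprel1, a prolyl 3-hydroxylase, had 1.16 and 0 normalized counts in wtPC12 and 279 and 221 in hrPC12, Fkbp14, a folding factor, had 96.6 and 111 and then 2015 and 2147, and Pcolce, which enhances removal of the procollagen end, had 8.14 and 23.7 and then 549 and 548. Their log2 FC were 8.54 (standard error 0.71), 4.32 (standard error 0.23) and 5.08 (standard error 0.54). Over the 16 genes the median log2 FC came to 0.64, against 0.06 over all genes tested. P4hb, the protein disulfide isomerase that also serves prolyl 4-hydroxylase, had 8215 and 6849 normalized counts in wtPC12 and 39169 and 22105 in hrPC12, with a log2 FC of 2.02 (edgeR adj. p value 0.0113), and was not called. Lepre1, Plod2 and Fkbp10 had adj. p values under 0.01 (edgeR) at log2 FC of 1.84, 1.14 and 1.21, within the fold threshold. They were picked with their values in view. Ppib, more abundant than each of them, was not called (log2 FC 0.73, edgeR adj. p value 0.0677).

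Of the processing enzymes that cross-link the chains or cleave procollagen, most were too low to test, and none of those tested was called. Loxl1, a lysyl oxidase, had no read in wtPC12 and 163 and 169 normalized counts in hrPC12, at least 50.5-fold higher. The filter kept Loxl1 out of the test, and with every gene tested it passed both thresholds (edgeR adj. p value 9.16e-05). Loxl2 and Loxl3 were tested and not called (log2 FC 0.18 and 0.48). Lox had at most 1 read in any library, and Bmp1, which cleaves the procollagen end, was not called with a log2 FC of −0.25. The collagen chaperone Serpinh1 was listed with no read in wtPC12 and with 3.63 normalized counts on average in hrPC12, too low to test. These 6 genes were named after their values were seen.

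Of the receptors, 9 of 10 were found and 5 tested, and none passed in edgeR, while 3 had an unadjusted p under 0.05 (6357 of 13726 over all genes) and DESeq2 called 1 lower. That gene, Itga1, the alpha subunit of a collagen-binding integrin, had 128 and 918 normalized counts in wtPC12 and 67.7 and 26.3 in hrPC12 (log2 FC −3.46, standard error 1.05, edgeR adj. p value 0.0591). In edgeR, 1 receptor was called lower without wtPC12 replicate 1 and without hrPC12 replicate 1. Itgb1, its beta subunit, had 10126 and 9537 in wtPC12 and 21768 and 23513 in hrPC12 (log2 FC 1.2, edgeR adj. p value 0.00832), and Ddr1, a collagen-binding kinase, had a log2 FC of −0.46. Itga11, the alpha subunit of another collagen-binding integrin, had no read in wtPC12 and 16.1 and 34.4 normalized counts in hrPC12, at least 7.67-fold higher. The filter kept Itga11 out of the test, and with every gene tested it passed both thresholds (edgeR adj. p value 0.00485). It was named after its values were seen.

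Of 14 partners of collagen fibrils, 12 were found and 8 tested, and 5 rose while none fell in edgeR or DESeq2. Among all tested genes 4.84% were called higher and 5.46% lower in edgeR. An unadjusted p under 0.05 (edgeR) was reached by 7 of the 8, and by 6357 of all 13726 genes tested. Of the 5, Fmod, Ogn and Fn1 had under 5 normalized counts on average in wtPC12 and so were tested only because they were high in hrPC12. Thbs2, a matricellular protein, had 102 and 89.6 normalized counts in wtPC12 and 77073 and 77225 in hrPC12, with a log2 FC of 9.65 (standard error 0.29). Sparc, a collagen-binding glycoprotein, had 305 and 214 and then 18917 and 20368, a log2 FC of 6.24 (standard error 0.28). Fmod, Ogn and Fn1, which code for fibromodulin, osteoglycin and fibronectin, also rose, with log2 FC of 8.13, 4.47 and 7.21. Lum and Postn, named after their values were seen, had no read in wtPC12 and so were kept out of the test. They had 20.9 and 43.8 normalized counts on average in hrPC12. With every gene tested both were higher past both thresholds (edgeR adj. p values 0.00422 and 0.000866). Dcn, which codes for decorin, had 36.1 and 21.6 normalized counts in wtPC12 and 2.54 and 4.05 in hrPC12 and was not called (log2 FC −3.10, edgeR adj. p value 0.0182). Of the enzymes that degrade collagen 4 of 6 were found and 2 tested, and Mmp13, the main collagenase of rodents, fell from 3923 and 3506 to 2.54 and 5.06 normalized counts (log2 FC −9.92, standard error 0.35, edgeR adj. p value 0.000261). Without wtPC12 replicate 2, none of the genes of these 4 lists passed.

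**Figure D5:**
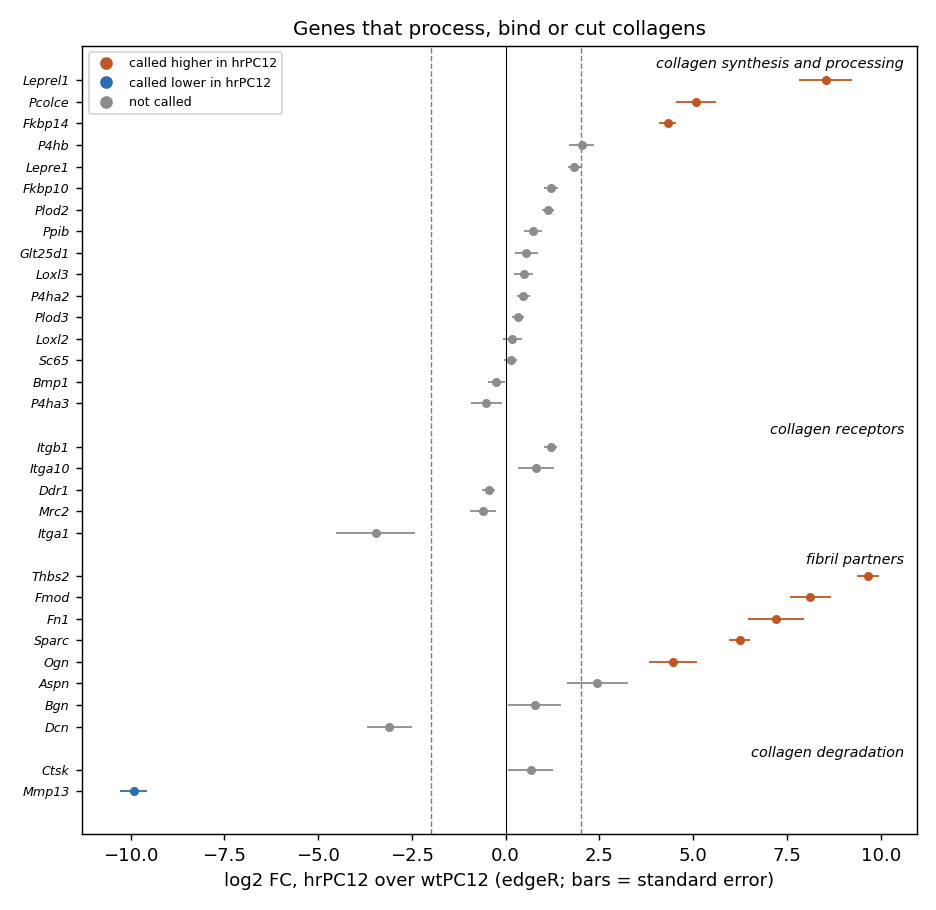
Log2 FC (hrPC12 over wtPC12, edgeR) with standard errors as bars of the tested genes that process collagens (16), bind them as receptors (5), accompany fibrils (8) or degrade them (2), and dashed lines at the threshold of 2 in either direction. Thbs2 lies highest at 9.65 and Mmp13 lowest at −9.92, and most processing genes lie between the dashed lines.

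Markers of fibroblasts, which make most of the fibrillar collagen of tissues, were counted beside the collagen genes. Of 10 found, 6 were tested and 3, Pdgfrb, Vim and S100a4, were higher in hrPC12, but Twist2, Prrx1, Tcf21 and Meox1 held at most 3 reads in every library. Among all tested genes 4.84% were higher. Vim had 2.77 normalized counts on average in wtPC12 and so passed the filter through hrPC12, where it had to be high. The summed level of the 10 found was 17116 and 19165 normalized counts in wtPC12 and 19941 and 21151 in hrPC12, of which Thy1 made 17058 and 8603 on average. Of the endothelial markers 1 of 4 tested, Vwf, was higher, with summed levels of 102 to 121 normalized counts in wtPC12 and 648 to 667 in hrPC12, and Pecam1 held at most 3 reads in every library. The part of such cells in the collagen counts was not tested.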

How the data were processed

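RNA of 2 wtPC12 and 2 hrPC12 libraries was sequenced as paired-end reads. The submitters' processing notes name TopHat2 2.0.4, HTSeq 0.5.3 and build rn4, and the authors deposited raw counts, without normalization, in 1 file per library. Another deposited table, the authors' DESeq comparison with fold changes and p values, was not used. No per-sample column was left out.

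Counts were normalized with TMM factors, and a normalized count is a count divided by the library's effective size, times the mean of these sizes. Tests used edgeR 4.0.16 (quasi-likelihood, legacy option on) and, as an alternative, DESeq2 1.42.0, in R 4.3.3. DESeq, which the study used, was replaced by edgeR. Standard errors are the log2 FC divided by the root of F. The common dispersion was 0.0745. A single gene with 2 libraries per clone cannot reach a 2-sided exact permutation p below 0.333. Libraries of a clone differed beyond sampling noise (chi-square per degree of freedom 82.4 and 59.4). On simulated counts of 13607 genes with 200 changed by a log2 of 3, edgeR found 193 and called 1 unchanged gene, and DESeq2 found 185 and called 0. The simulated counts had the same dispersion for every gene, set below the common dispersion of the data. They check that the code runs as meant and do not give the error rate on these data.

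Collagen genes were named by their symbol. The classes, the gene lists and the members were chosen with earlier results of these data known. Named genes are the collagen genes, the called genes of the lists and the most abundant ones not called, Rest and the markers, and for others the text says that they were picked with their values in view. Some list genes were not found under their symbols and are not analysed here. Gene order came from the GRCr8 table, in which 75.8% of tested genes could be placed by symbol or synonym. A run is 5 or more successive genes (each with 20 or more normalized counts in hrPC12) in which replicate 1 exceeds replicate 2 of hrPC12 by more than 0.4 on the log2 scale, as the median in a window of 7 genes. Alternatives tried were testing every gene with a read, filterByExpr, RLE factors, unscaled library totals, DESeq2, the legacy option off, a prior count of 2, glmTreat, an adj. p value of 0.05, hrPC12 replicate 1 scaled in runs, and each library left out, where the lone library is assumed to vary like the other clone.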

Additional observations from a re-analysis of the deposited data

How the results depend on the processing

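Of the 311 values of the 23 tested collagen genes under 14 alternatives, 276 kept their direction and their side of the thresholds, 29 lost a call, 5 gained one (Col17a1) and 1 changed sign, that of Col8a2, not called, from 0.17 to −0.0017 without hrPC12 replicate 2 (range with a library left out −0.0017 to 0.30). Precision is limited by 2 libraries per clone and, for the beaded genes, Col1a1, Col1a2 and Col8a1, by a few reads in wtPC12. No paired analysis was possible because the labels do not number the libraries of both clones alike.

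Under glmTreat, 8 collagen genes were higher and 0 lower, and 321 (2.34%) and 353 (2.57%) of all 13726 genes, since it tests for a change past the fold threshold. An unadjusted p under 0.05 (glmTreat) was reached by 17 collagen genes and by 1657 of all genes. The genes lost were Col1a1, Col1a2, Col5a3, Col6a1, Col6a2, Col11a2, Col27a1 and Col9a2. With every gene tested, 1127 genes were higher, 5 processing genes and 1 receptor were higher, and 1 fibril partner was lower. Lum and Postn, fibril partners outside the main test, were then called higher, and the median log2 FC of the collagen genes was 2.56. It was 5.62 with filterByExpr. At an adj. p value of 0.05, 1088 genes were higher and 1 fibril partner lower, as it was with RLE factors. DESeq2 called 1 receptor lower.

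With each library left out in turn, 0 to 13 collagen genes were higher and 0 to 3 lower, 0 to 962 and 0 to 859 of all genes, 0 to 4 processing genes and 0 to 5 fibril partners higher, 0 to 1 receptor and 0 to 1 degrading enzyme lower. The median log2 FC was 3.01 to 4.89, and the cause was not tested. The counts of 0 come from leaving out wtPC12 replicate 2.

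Rest, at an adj. p value of 0.0115, passed both thresholds (edgeR or DESeq2, Benjamini-Hochberg) with RLE factors (log2 FC 3.38), library totals alone (3.46), every gene tested (3.42), DESeq2 (3.39), the legacy option off (3.41), and at an adj. p value of 0.05 (3.42). Its log2 FC was 2.80 to 4.44 with a library left out. With a limit of 0 reads in place of 3, 3 collagen genes in wtPC12 and 1 in hrPC12 were at the limit, and with 10 reads 16 and 9.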
